A study of Homo sapiens with 12 samples.

Results

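The enzymes of nucleotide synthesis and of folate one-carbon metabolism were followed in T47D cells, with and without ectopic HOXB13 and with and without estradiol. The 35 genes were chosen by name, as members of the purine, pyrimidine, salvage and folate pathways. The choice, out of 55882 gene symbols in the count table, was made with earlier results of these data known. Of the 35 genes, 34 passed the filter on low counts and were among the 14799 genes tested, and NME2 was listed at 0 counts in every library. T47D is an established line of human breast cancer cells that expresses the estrogen receptor, and HOXB13 is a homeobox transcription factor. The 4 groups, with 3 libraries each, were T47D cells with ectopic HOXB13 given 2 nM estradiol, the same HOXB13 cells given the ethanol vehicle, control T47D cells given 2 nM estradiol and control T47D cells given ethanol. Treatment lasted 24 h in all groups, after 72 h in phenol-free DMEM with 10% charcoal-stripped serum, which holds little steroid hormone. The labels call the control cells normal or wild type, and do not say whether these carried an empty vector or whether the HOXB13 cells were 1 clone or a pool.

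Purine synthesis builds inosine monophosphate step by step on phosphoribosyl pyrophosphate (PRPP), and separate branches turn it into AMP and GMP. Pyrimidine synthesis makes the ring first, joins it to PRPP to give UMP, and then aminates UTP to CTP. Folate carries the one-carbon units that purine and thymidylate synthesis consume, and it is loaded with them in the cytosol and in mitochondria. Salvage enzymes reuse free bases and nucleosides. Dividing cells need large nucleotide pools for DNA and RNA, and estradiol is a mitogen of estrogen-receptor-positive breast cancer cells.

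Total counts were 17679824 to 21385996 per library. HOXB13 itself, which checks the genotype, was at 4.79 to 5.84 CPM (counts scaled to library size, with TMM factors) in the 6 HOXB13 libraries, against 0 to 0.1003 CPM in the 6 control libraries. The epithelial genes EPCAM, KRT8, KRT18, KRT19, CDH1, GATA3 and ESR1 were each above 100 CPM in every library. In HOXB13 cells, CDH1 was at 888 to 1003 CPM with estradiol, against 1255 to 1473 with vehicle, and GATA3 at 1120 to 1285, against 1536 to 1764. In control cells, CDH1 was at 920 to 1094 CPM, against 1252 to 1459, and GATA3 at 1211 to 1339, against 1495 to 1627. KRT8 was higher in each control estradiol library than in any control vehicle library. All other treatment ranges of these genes overlapped within a genotype. Among genes that mark other cell types, CDH5 (endothelium) had 0 counts, PTPRC, CD3E and CD68 (leukocytes) stayed at or below 0.211 CPM, and ADIPOQ (fat cells) and COL3A1 (fibroblasts) reached at most 1.46 and 2.501 CPM. The fibroblast collagen gene COL1A1 was at 51.5 to 64.1 CPM in every library, with overlapping groups. ACTA2, the smooth muscle actin, was at 26.5 to 34.9 CPM in HOXB13 estradiol libraries, against 26.6 to 33.7 CPM in HOXB13 vehicle libraries, and 22.2 to 24.1 CPM in control estradiol libraries, against 11.9 to 19.6 CPM in control vehicle libraries. CDH5, PTPRC, CD3E and CD68 were below the filter on low counts and were not tested, and test results of the epithelial genes are not given here. COL1A1, COL3A1, ACTA2 and ADIPOQ did not pass a test without the replicate block, a term for the library number. With it, ACTA2 was higher in estradiol in control cells (edgeR adjusted p = 0.00304) and higher in HOXB13 than in control cells in vehicle (0.000616), and ADIPOQ was lower in estradiol in HOXB13 cells (0.0262). The part of other cell types in the results below was not tested. PECAM1, also sought as a marker, was not among the gene symbols of the counts. The libraries numbered 2 in all 4 groups lay apart from the other 8 on the second principal component of log2 CPM, which held 17.8% of the variance. What a replicate number marks, and whether replicates were grown as separate cultures, is not in the labels. The p-values therefore reflect spread among libraries that may be technical repeats. In bulk RNA, a change in the number of cells of one kind and a change in RNA per cell cannot be told apart.

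Many of these enzymes rose with estradiol in both genotypes, and none passed the test as lower. In HOXB13 cells 17 of the 34 members tested were higher with estradiol, 0 were lower and 17 stayed short of the threshold, a Benjamini-Hochberg adjusted p of 0.05 from edgeR's quasi-likelihood fit. In control cells the counts were also 17, 0 and 17. Over all 14799 tested genes, 7.22% rose and 6.38% fell in HOXB13 cells, and 8.65% rose and 6.72% fell in control cells. The same 15 members rose in both genotypes: PPAT, GART, PFAS, PAICS, GMPS, CAD, DHODH, CTPS1, HPRT1, UCK2, NME1, DTYMK, DCTPP1, MTHFD1 and MTHFD1L. UMPS and ALDH1L2 passed in HOXB13 cells alone, and IMPDH2 and DCK in control cells alone. The difference between the genotypes' responses did not pass for any of these 4 genes. The median log2 fold change of the 34 members was 0.45 in HOXB13 cells and 0.50 in control cells, where that of all tested genes was −0.01 in both. Because the members were chosen with earlier results of these data known, these shares and medians describe the list and do not test it.

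With the replicate number as a block, 23 members rose and 0 fell in HOXB13 cells, where 15.5% of all genes rose and 15.0% fell, and 24 rose and 2 fell in control cells, where 17.5% and 16.5% did. Without the 4 libraries numbered 2, 23 members rose in HOXB13 cells and 20 in control cells, where 11.8% and 12.9% of all tested genes rose. Leaving out the 4 libraries numbered 1 instead, 3 members rose in HOXB13 cells and 7 in control cells, where 1.43% and 2.45% of all tested genes rose. Leaving out the 4 numbered 3, 7 members rose in HOXB13 cells and 10 in control cells, where 2.34% and 3.14% of all tested genes rose. The counts over all genes thus moved in the same direction as those of the members. In 19 of the 34 members all 6 estradiol libraries stood above all 6 vehicle libraries, as in 8.76% of all tested genes. The summed level of the members was 2891 to 3012 CPM in HOXB13 estradiol libraries, against 2193 to 2356 CPM in HOXB13 vehicle libraries, and 2795 to 3074 CPM in control estradiol libraries, against 1948 to 2304 CPM in control vehicle libraries. All 6 estradiol libraries stood below all 6 vehicle libraries in 1 member, ADSS, as in 7.07% of all tested genes.

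**Figure D1:**
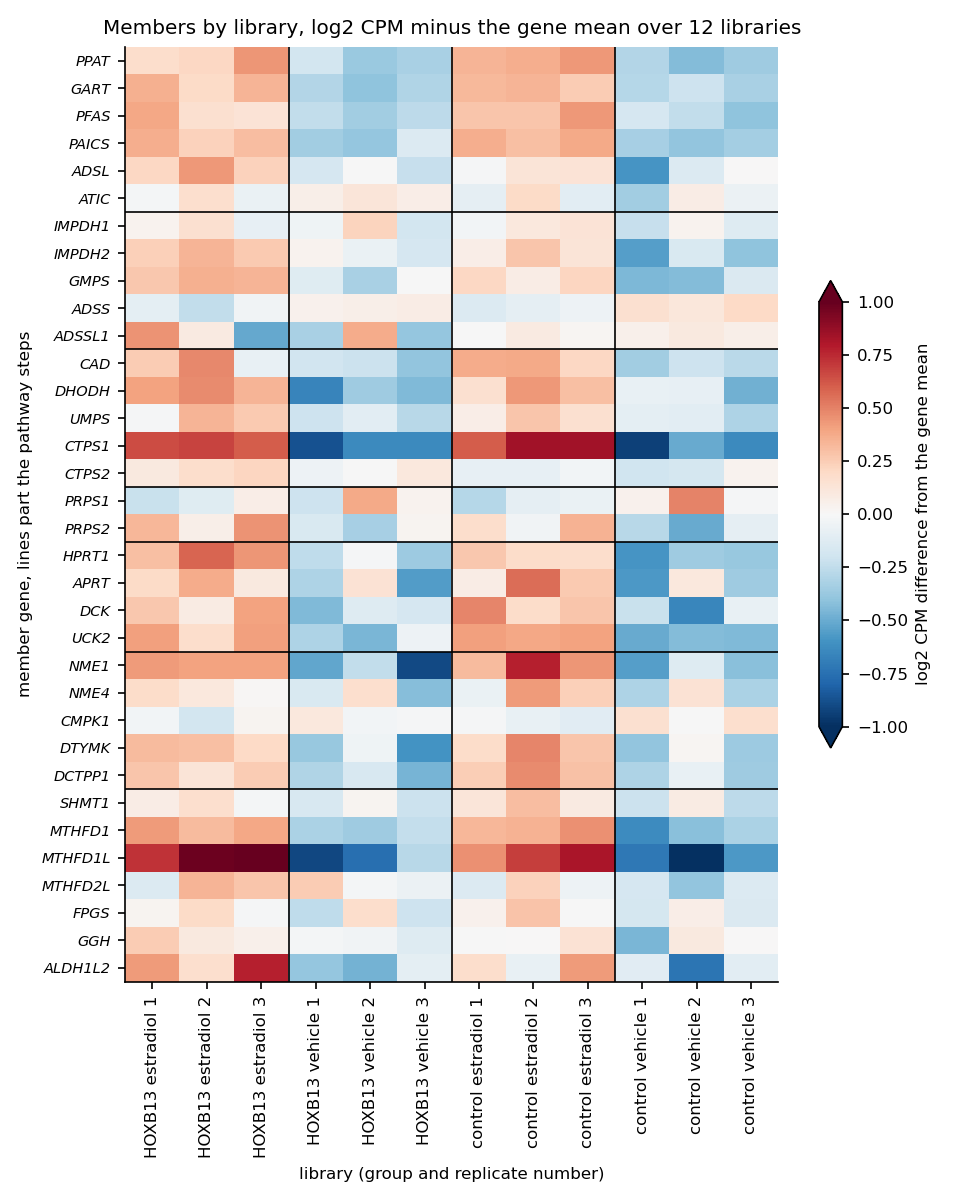
Level of the 34 tested members in each of the 12 libraries, as log2 CPM minus the mean of the gene over all libraries (colour, red above and blue below the mean), with columns for libraries and rows for genes in pathway order. CTPS1 and MTHFD1L show the widest swing between estradiol and vehicle columns, and ADSS is lower in every estradiol column than in any vehicle column.

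The early enzymes of purine synthesis rose with estradiol, 4 of 6 in each genotype. PPAT, the amidotransferase that commits PRPP to purine synthesis, had 27.2, 27.7 and 32.8 CPM in HOXB13 estradiol libraries, against 21.2, 18.6 and 19.2 in HOXB13 vehicle libraries. In control cells it had 30.5, 30.96 and 32.5 CPM with estradiol, against 19.7, 17.9 and 18.8 with vehicle. No estradiol library of either genotype overlapped a vehicle library. Estradiol over vehicle, PPAT had a log2 fold change of 0.57 ± 0.113 in HOXB13 cells and 0.74 ± 0.113 in control cells (SE; adjusted p = 0.00375 and 0.000516).

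PAICS, which encodes a bifunctional carboxylase and synthetase of the same pathway, had 165, 151 and 159 CPM in HOXB13 estradiol libraries, against 101, 97.8 and 117 in HOXB13 vehicle libraries, and 165, 158 and 166 CPM in control estradiol libraries, against 102, 97.3 and 101 in control vehicle libraries. Its groups did not overlap either. For PAICS, the fitted log2 fold change was 0.59 ± 0.0918 in HOXB13 cells and 0.71 ± 0.0918 in control cells (SE; adjusted p = 0.000757 and 0.000152).

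GART, which encodes a trifunctional enzyme with a folate-dependent step, had 135, 121 and 134 CPM in HOXB13 estradiol libraries, against 86.6, 80.3 and 86.05 in HOXB13 vehicle libraries, and 133, 134 and 126 CPM in control estradiol libraries, against 86.9, 91.8 and 84.4 in control vehicle libraries. Its log2 fold change was 0.63 in HOXB13 cells and 0.58 in control cells (adjusted p = 0.000408 and 0.000511). PFAS, the amidotransferase between the GART-catalysed steps, had 38.3, 32.7 and 32.3 CPM in HOXB13 estradiol libraries, against 24.7, 23.03 and 24.5 in HOXB13 vehicle libraries, and 35.6, 35.5 and 39.7 CPM in control estradiol libraries, against 26.1, 24.7 and 22.2 in control vehicle libraries. For both genes, every estradiol library was above every vehicle library. PFAS had log2 fold changes of 0.52 and 0.60 (adjusted p = 0.00701 and 0.00214). ADSL, the lyase that acts in both the main path and the AMP branch, had 0.43 and 0.31 without passing (adjusted p = 0.0566 and 0.164), and passed with the replicate block (adjusted p = 0.00102 and 0.0107). In the GENCODE release 29 annotation, 28.4% of the exon bases of ADSL are shared with a same-strand gene, AL022238.4, so its counts may be incomplete. ATIC, the last enzyme of the path, was at 221, 252 and 214 CPM in HOXB13 estradiol libraries, against 234, 244 and 234 in HOXB13 vehicle libraries, and 210.3, 256 and 208 CPM in control estradiol libraries, against 177, 236 and 216 in control vehicle libraries. These ranges overlapped, and the 95% intervals of its log2 fold change were −0.31 to 0.21 and −0.16 to 0.36, so an increase the size of that of PAICS lay outside both.

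PPAT and PAICS are neighbours transcribed in opposite directions, and their promoter windows are shown because both genes rose together. The RefSeq start sites used here lie 137 bases apart, and the 300-base windows (250 bases before to 50 after a start site, GRCh38.p14) share 236 bases. PPAT lies at chr4:56435566-56435865 on the minus strand, and the PAICS window that overlaps it lies at chr4:56435502-56435801 on the plus strand. Capitals mark CACGTG, the E-box letters read by MYC and related factors, which are at the same genomic bases, 56435792 to 56435797, in both windows.
PPAT: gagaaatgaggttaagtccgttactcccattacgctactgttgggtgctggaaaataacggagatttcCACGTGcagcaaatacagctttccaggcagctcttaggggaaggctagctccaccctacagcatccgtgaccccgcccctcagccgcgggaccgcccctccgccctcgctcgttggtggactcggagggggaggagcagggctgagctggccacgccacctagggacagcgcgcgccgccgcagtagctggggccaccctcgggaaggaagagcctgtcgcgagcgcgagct
PAICS: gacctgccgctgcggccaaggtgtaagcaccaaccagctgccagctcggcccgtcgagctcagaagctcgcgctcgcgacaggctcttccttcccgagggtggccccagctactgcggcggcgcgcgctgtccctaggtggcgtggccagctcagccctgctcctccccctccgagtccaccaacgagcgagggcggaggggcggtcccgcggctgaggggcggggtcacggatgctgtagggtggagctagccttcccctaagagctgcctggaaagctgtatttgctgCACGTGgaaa
Of the 31 members with a RefSeq window, 10 held CACGTG in at least 1 window, against 8.77% of all 27305 genes with such a window. Those 27305 were not limited to genes expressed or tested here, and the share among tested genes was not counted. By window, 12 of 47 windows of members held it (25.5%), against 7.26% of 35116 windows, and windows of 1 gene can overlap. In these counts, the CACGTG that PPAT and PAICS share is counted for both genes. The 10 were PPAT, PAICS, ATIC, DHODH, DCK, NME1, DCTPP1, MTHFD1, MTHFD1L and FPGS. They include 7 of the 15 members that rose in both genotypes and 3 of the other 16 with a window. Those 16 include NME2, which was not tested. ATIC and FPGS held the letters without a change past the threshold. The estrogen response element, searched as GGTCA and TGACC with any 3 bases between, was in the windows of 0 members and of 0.0732% of all genes, and TTTCCCGC, an E2F-type motif, in the window of 1 member, PRPS2, and of 1.98% of all genes. Motifs were searched on both strands. No motif holds the letters of another, and a match describes the letters only.

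In the branches to AMP and GMP, 1 of 5 members rose in HOXB13 cells and 2 of 5 in control cells, all of them in the GMP branch. GMPS, which encodes GMP synthase, had 236, 250.2 and 247 CPM in HOXB13 estradiol libraries, against 179.5, 156 and 195 in HOXB13 vehicle libraries, and 226, 206 and 227 CPM in control estradiol libraries, against 143, 145 and 177 in control vehicle libraries. This gave GMPS a log2 fold change of 0.47 ± 0.110 in HOXB13 cells and 0.50 ± 0.110 in control cells (SE; adjusted p = 0.0114 and 0.00623). IMPDH2, the growth-linked form of the dehydrogenase that opens the GMP branch, had 309, 334 and 316 CPM in HOXB13 estradiol libraries, against 269, 251 and 233 in HOXB13 vehicle libraries, and 276, 318 and 287 CPM in control estradiol libraries, against 179, 236 and 199 in control vehicle libraries. Every estradiol library lay above every vehicle library for both genes. The log2 fold change of IMPDH2 was 0.35 in HOXB13 cells (adjusted p = 0.0514, 0.00121 with the replicate block) and 0.52 in control cells (adjusted p = 0.00526).

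IMPDH1, the second form of that dehydrogenase, had 80.2, 87.5 and 74.2 CPM in HOXB13 estradiol libraries, against 75.99, 91.3 and 68.9 in HOXB13 vehicle libraries, and 76.96, 84.1 and 86.2 CPM in control estradiol libraries, against 66.6, 80.2 and 71.8 in control vehicle libraries. These ranges overlapped, and it had log2 fold changes of 0.03 and 0.18 in HOXB13 and control cells without passing (adjusted p = 0.899 and 0.365). ADSS, the adenylosuccinate synthase that opens the AMP branch, had 54.2, 48.9 and 56.4 CPM in HOXB13 estradiol libraries, against 59.6, 60.2 and 61.04 in HOXB13 vehicle libraries, and 52.7, 54.4 and 55.99 CPM in control estradiol libraries, against 64.7, 62.7 and 66.4 in control vehicle libraries. It was lower in each estradiol library than in any vehicle library, though its log2 fold changes of −0.18 and −0.25 did not pass (adjusted p = 0.230 and 0.0838). The fall in control cells passed with the replicate block (adjusted p = 0.0113) and by DESeq2 (0.0307). In HOXB13 cells it did not pass with the block (0.0673). ADSSL1, the muscle form of the same enzyme, had 5.68, 4.43 and 2.92 CPM in HOXB13 estradiol libraries, against 3.33, 5.39 and 3.19 in HOXB13 vehicle libraries, and 4.15, 4.44 and 4.22 CPM in control estradiol libraries, against 4.31, 4.45 and 4.33 in control vehicle libraries. Its treatments overlapped, with log2 fold changes of 0.13 and −0.03 (adjusted p = 0.802 and 0.955).

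In the pyrimidine path, 4 of 5 members rose in HOXB13 cells and 3 of 5 in control cells, and CTPS1 had the largest change. CTPS1, the CTP synthase linked to proliferation in lymphocytes, had 34.9, 35.4 and 33.8 CPM in HOXB13 estradiol libraries, against 12.1, 14.3 and 14.3 in HOXB13 vehicle libraries. In control cells it had 33.8, 39.7 and 39.8 CPM with estradiol, against 11.6, 15.7 and 14.3 with vehicle. The lowest estradiol library was more than 2-fold above the highest vehicle library. The log2 fold change of CTPS1 was 1.36 ± 0.131 in HOXB13 cells and 1.45 ± 0.130 in control cells (SE; adjusted p = 2.36e-05 and 7.91e-06). These are 2.56-fold in HOXB13 cells and 2.72-fold in control cells. CTPS2, the other CTP synthase, had 84.3, 88.9 and 91.3 CPM in HOXB13 estradiol libraries, against 76.04, 78.5 and 84.5 in HOXB13 vehicle libraries, and 74.2, 74.5 and 77.4 CPM in control estradiol libraries, against 68.5, 69.7 and 80.5 in control vehicle libraries. Its log2 fold changes of 0.15 and 0.05 did not pass (adjusted p = 0.370 and 0.793).

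CAD, which encodes the trifunctional protein of the first steps of pyrimidine synthesis, had 138, 162 and 110.2 CPM in HOXB13 estradiol libraries, against 102, 99.998 and 88.4 in HOXB13 vehicle libraries, and 150.3, 151 and 134 CPM in control estradiol libraries, against 90.9, 100.5 and 96.4 in control vehicle libraries. Estradiol over vehicle, CAD had a log2 fold change of 0.50 ± 0.126 in HOXB13 cells and 0.59 ± 0.126 in control cells (SE; adjusted p = 0.0172 and 0.00522). In HOXB13 cells the call ended without estradiol library 1, estradiol library 2 or vehicle library 3 (adjusted p = 0.0592, 0.0782 and 0.0674). DHODH, the mitochondrial dehydrogenase of the fourth step, had 10.99, 11.6 and 10.5 CPM in HOXB13 estradiol libraries, against 5.26, 6.497 and 6.12 in HOXB13 vehicle libraries, and 9.28, 11.2 and 10.2 CPM in control estradiol libraries, against 7.92, 7.86 and 5.95 in control vehicle libraries. Estradiol and vehicle libraries did not overlap. For DHODH, the fitted log2 fold change was 0.89 ± 0.159 in HOXB13 cells and 0.50 ± 0.157 in control cells (SE; adjusted p = 0.00206 and 0.0451). In control cells the call ended without any 1 library other than vehicle library 2 (adjusted p = 0.0538 to 0.168).

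UMPS, which makes UMP, had 38.3, 48.9 and 46.2 CPM in HOXB13 estradiol libraries, against 33.5, 35.9 and 31.96 in HOXB13 vehicle libraries, and 40.4, 46.9 and 43.3 CPM in control estradiol libraries, against 36.2, 35.9 and 31.3 in control vehicle libraries. All estradiol libraries were above all vehicle libraries, with log2 fold changes of 0.40 in HOXB13 cells and 0.34 in control cells (adjusted p = 0.0378 and 0.0690, the second 0.00546 with the replicate block). The call in HOXB13 cells ended without estradiol library 2, estradiol library 3, vehicle library 1 or vehicle library 3 (adjusted p = 0.115 to 0.136). The promoter windows of CAD (chr2:27217119-27217418, plus strand) and CTPS1 (chr1:40979446-40979745, plus strand, the first of 2 windows) are shown for comparison with the PPAT and PAICS windows. The CAD and CTPS1 windows hold none of the 3 motifs. Bases beyond the promoter windows of either gene were not searched, so a motif there would be missed. Any link between these motifs and the rise of either gene was not tested.
CAD: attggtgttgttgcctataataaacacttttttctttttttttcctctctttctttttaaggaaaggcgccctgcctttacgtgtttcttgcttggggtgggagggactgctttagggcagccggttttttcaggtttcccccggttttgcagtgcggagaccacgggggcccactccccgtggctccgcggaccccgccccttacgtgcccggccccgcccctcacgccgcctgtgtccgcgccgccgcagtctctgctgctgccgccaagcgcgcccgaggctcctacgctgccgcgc
CTPS1: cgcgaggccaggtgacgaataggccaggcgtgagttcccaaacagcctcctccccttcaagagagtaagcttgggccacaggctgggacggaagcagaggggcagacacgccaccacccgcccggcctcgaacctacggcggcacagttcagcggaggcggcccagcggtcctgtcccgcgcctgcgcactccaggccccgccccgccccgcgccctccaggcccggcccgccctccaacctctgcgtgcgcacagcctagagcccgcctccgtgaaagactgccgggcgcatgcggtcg

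**Figure D2:**
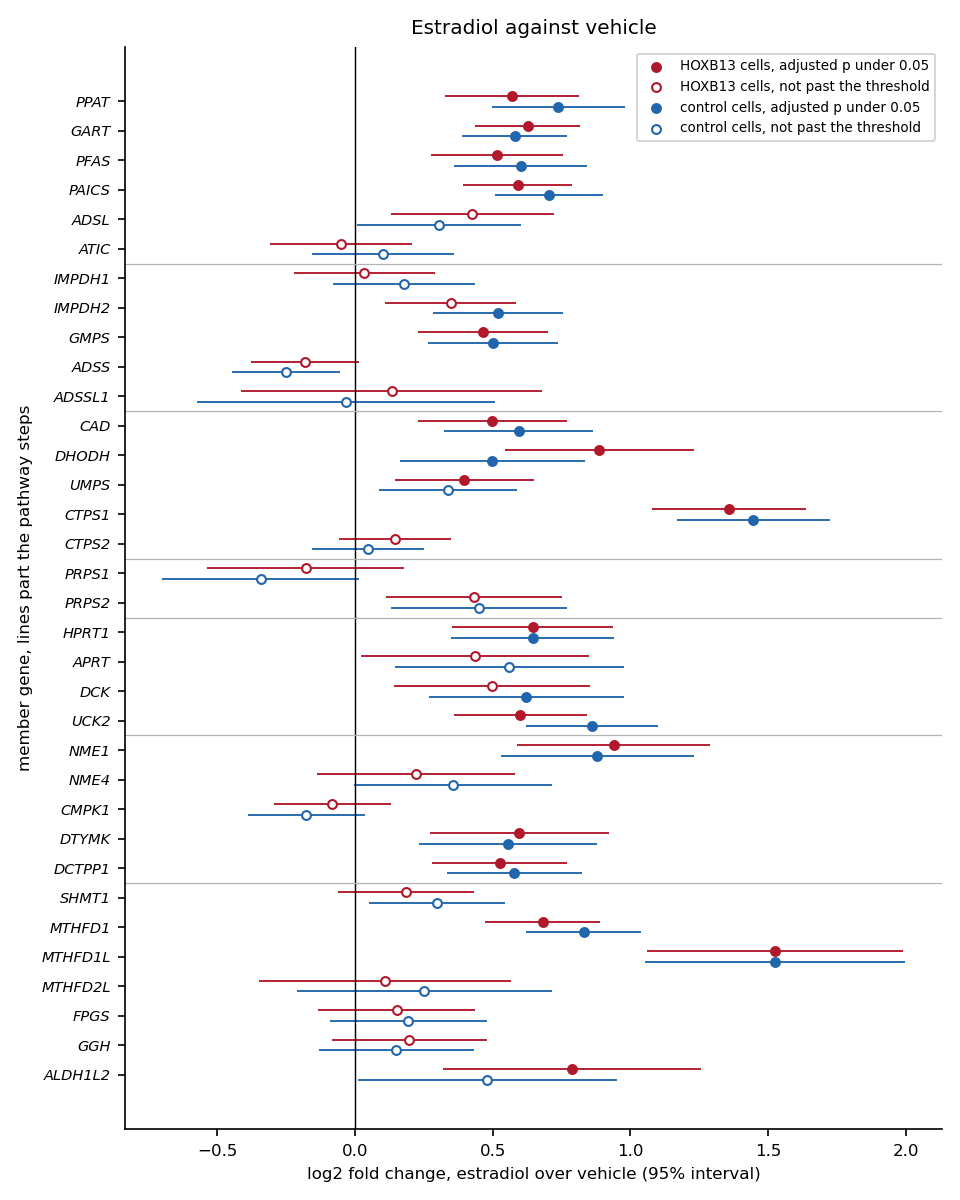
Log2 fold change of each tested member, estradiol over vehicle (x axis, points with 95% intervals), in HOXB13 cells (red, upper point) and control cells (blue, lower point), with filled points for an adjusted p under 0.05. CTPS1 and MTHFD1L lie farthest to the right in both genotypes, and only ADSS, PRPS1, CMPK1, ATIC and ADSSL1 have a point left of 0.

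The 2 synthetases that supply PRPP had fold changes of opposite sign, and neither passed in edgeR's fit of all 12 libraries without the block. PRPS2 had 44.5, 36.7 and 48.1 CPM in HOXB13 estradiol libraries, against 31.8, 28.1 and 35.99 in HOXB13 vehicle libraries, and 39.8, 34.4 and 44.99 CPM in control estradiol libraries, against 29.1, 24.9 and 33.3 in control vehicle libraries. Its log2 fold changes were 0.43 and 0.45 (adjusted p = 0.0728 and 0.0565, and 0.000240 and 0.000127 with the replicate block). PRPS2 also passed in both genotypes by DESeq2 (adjusted p = 0.0464 and 0.0329), with no filter on low counts (0.0434 and 0.0298) and without the 4 libraries numbered 2 (0.00786 and 0.00871). Leaving out 1 library, it passed in HOXB13 cells without estradiol library 2 (0.0445), and in control cells without estradiol library 2 or vehicle library 3 (0.0413 and 0.0425). PRPS1 had 25.7, 27.5 and 31.4 CPM in HOXB13 estradiol libraries, against 26.01, 39.04 and 30.7 in HOXB13 vehicle libraries, and 24.6, 28.1 and 28.6 CPM in control estradiol libraries, against 30.8, 42.3 and 29.8 in control vehicle libraries. The highest values of PRPS1 were those of the vehicle libraries numbered 2. Its log2 fold changes were −0.18 and −0.34 (adjusted p = 0.561 and 0.199), and in control cells the fall passed with the replicate block (adjusted p = 0.0225).

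Of the 4 salvage enzymes, 2 rose in HOXB13 cells and 3 in control cells. UCK2, the uridine and cytidine kinase found in many tumours, had 82.3, 69.9 and 81.9 CPM in HOXB13 estradiol libraries, against 49.8, 45.01 and 59.6 in HOXB13 vehicle libraries, and 81.9, 80.9 and 81.7 CPM in control estradiol libraries, against 43.5, 45.6 and 45.5 in control vehicle libraries. This gave UCK2 a log2 fold change of 0.60 ± 0.112 in HOXB13 cells and 0.86 ± 0.112 in control cells (SE; adjusted p = 0.00270 and 0.000159). HPRT1, which returns hypoxanthine and guanine to nucleotides, had 16.6, 20.2 and 18.3 CPM in HOXB13 estradiol libraries, against 11.3, 13.4 and 10.5 in HOXB13 vehicle libraries, and 16.3, 15.4 and 15.2 CPM in control estradiol libraries, against 8.98, 10.6 and 10.4 in control vehicle libraries. Treatments did not overlap for either gene. The log2 fold change of HPRT1 was 0.65 ± 0.136 in HOXB13 cells and 0.65 ± 0.138 in control cells (SE; adjusted p = 0.00582 and 0.00531).

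DCK, the deoxycytidine kinase that also activates several nucleoside drugs, had 16.3, 14.3 and 17.9 CPM in HOXB13 estradiol libraries, against 9.98, 12.4 and 12.03 in HOXB13 vehicle libraries, and 18.996, 15.4 and 16.4 CPM in control estradiol libraries, against 11.6, 8.62 and 12.8 in control vehicle libraries. Treatments did not overlap, with log2 fold changes of 0.50 and 0.62 (adjusted p = 0.0626 in HOXB13 cells, 0.00871 with the replicate block, and 0.0194 in control cells). The call in control cells ended without estradiol library 1, estradiol library 3 or vehicle library 2 (adjusted p = 0.0797, 0.0510 and 0.0566). APRT, which salvages adenine, had 219.6, 248 and 206 CPM in HOXB13 estradiol libraries, against 155, 212 and 131 in HOXB13 vehicle libraries, and 202, 284 and 229.9 CPM in control estradiol libraries, against 129, 206 and 150.1 in control vehicle libraries. In every group, the library numbered 2 was the highest for APRT. Its log2 fold changes of 0.44 and 0.56 did not pass (adjusted p = 0.168 and 0.0672). Both passed with the replicate block (0.000283 and 1.74e-05).

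Among the nucleotide kinases and the pool-cleaning enzyme, NME1, DTYMK and DCTPP1 rose in both genotypes. NME1, a nucleoside diphosphate kinase first described as a metastasis suppressor, had 83.3, 81.9 and 81.8 CPM in HOXB13 estradiol libraries, against 43.4, 52.3 and 33.2 in HOXB13 vehicle libraries, and 77.1, 107 and 84.3 CPM in control estradiol libraries, against 42.5, 56.8 and 46.4 in control vehicle libraries. Estradiol over vehicle, NME1 had a log2 fold change of 0.94 ± 0.164 in HOXB13 cells and 0.88 ± 0.163 in control cells (SE; adjusted p = 0.00179 and 0.00218). NME2, its neighbour and close relative, was listed at 0 in all 12 libraries, while the read-through gene NME1-NME2 held 122, 137 and 117 CPM in HOXB13 estradiol libraries, against 88.6, 121 and 83.5 in HOXB13 vehicle libraries, and 105, 164 and 138 CPM in control estradiol libraries, against 80.2, 121 and 99.96 in control vehicle libraries. In GENCODE release 29 the read-through gene shares 40.4% of the exon bases of NME2 and 32.4% of those of NME1. The listed 0 is therefore no measure of NME2 expression, and the counts of NME1 may be incomplete.

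DTYMK, the thymidylate kinase, had 51.9, 51.3 and 47.8 CPM in HOXB13 estradiol libraries, against 31.96, 40.5 and 27.5 in HOXB13 vehicle libraries, and 47.3, 58.6 and 50.5 CPM in control estradiol libraries, against 31.7, 42.2 and 32.3 in control vehicle libraries. For DTYMK, the fitted log2 fold change was 0.60 ± 0.151 in HOXB13 cells and 0.56 ± 0.151 in control cells (SE; adjusted p = 0.0176 and 0.0220). The call ended in HOXB13 cells without estradiol library 1, vehicle library 1 or vehicle library 3 (adjusted p = 0.0648, 0.0742 and 0.0727), and in control cells without estradiol library 2, estradiol library 3, vehicle library 1 or vehicle library 3 (0.0552 to 0.0990). DCTPP1, a pyrophosphatase that removes dCTP and modified forms of it, had 74.6, 67.5 and 73.4 CPM in HOXB13 estradiol libraries, against 49.98, 55.1 and 44.6 in HOXB13 vehicle libraries, and 73.01, 85.4 and 75.3 CPM in control estradiol libraries, against 49.7, 58.5 and 48.3 in control vehicle libraries. Its treatments did not overlap, and it had log2 fold changes of 0.53 and 0.58 (adjusted p = 0.00712 and 0.00326). In GENCODE release 29, 42.1% of its exon bases overlap ZNF771 on the opposite strand, and the strand setting of the counts is not given in the sources used here. NME4, the mitochondrial nucleoside diphosphate kinase, had 0.22 and 0.36 without passing (adjusted p = 0.453 and 0.182, the second 0.00816 with the replicate block). CMPK1, the UMP and CMP kinase, had −0.08 and −0.18 (0.663 and 0.270).

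In folate metabolism 3 of 7 members rose in HOXB13 cells and 2 of 7 in control cells. MTHFD1L, the mitochondrial ligase that releases formate, had 13.7, 16.4 and 16.5 CPM in HOXB13 estradiol libraries, against 4.42, 4.91 and 6.85 in HOXB13 vehicle libraries, and 11.4, 13.4 and 14.6 CPM in control estradiol libraries, against 5.06, 3.07 and 5.59 in control vehicle libraries. This gave MTHFD1L a log2 fold change of 1.52 ± 0.217 in HOXB13 cells and 1.52 ± 0.220 in control cells (SE; adjusted p = 0.000457 and 0.000353). MTHFD1, the trifunctional cytosolic enzyme that takes up that formate, had 287, 266 and 280.3 CPM in HOXB13 estradiol libraries, against 171, 167 and 181 in HOXB13 vehicle libraries, and 269, 272 and 294 CPM in control estradiol libraries, against 138, 159.9 and 172 in control vehicle libraries. For both genes every estradiol library exceeded every vehicle library. The log2 fold change of MTHFD1 was 0.68 ± 0.0971 in HOXB13 cells and 0.83 ± 0.0971 in control cells (SE; adjusted p = 0.000437 and 6.56e-05). MTHFD1L was the member with the largest fold change, 2.88-fold in HOXB13 cells and 2.88-fold in control cells.

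The promoter window of MTHFD1L is shown because of that change (chr6:150866236-150866535, plus strand; the first of 4 windows, 3 of which hold CACGTG). Its E-box letters, in capitals, begin 154 bases before the start site.
MTHFD1L: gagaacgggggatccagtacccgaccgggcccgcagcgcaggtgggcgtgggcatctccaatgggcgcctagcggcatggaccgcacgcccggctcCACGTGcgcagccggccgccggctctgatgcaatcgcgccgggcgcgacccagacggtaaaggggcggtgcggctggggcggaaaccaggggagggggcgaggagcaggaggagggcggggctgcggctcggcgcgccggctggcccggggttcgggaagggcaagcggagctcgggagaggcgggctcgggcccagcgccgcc
ALDH1L2, the mitochondrial formyl-folate dehydrogenase, had 8.98, 7.50 and 11.4 CPM in HOXB13 estradiol libraries, against 5.11, 4.81 and 6.22 in HOXB13 vehicle libraries, and 7.52, 6.35 and 8.97 CPM in control estradiol libraries, against 6.17, 4.02 and 6.21 in control vehicle libraries. Estradiol over vehicle, ALDH1L2 had a log2 fold change of 0.79 ± 0.219 in HOXB13 cells and 0.48 ± 0.219 in control cells (SE; adjusted p = 0.0277 and 0.168). The call in HOXB13 cells ended without estradiol library 1, estradiol library 3, vehicle library 1 or vehicle library 2 (adjusted p = 0.0678 to 0.130), and control cells passed with the replicate block (adjusted p = 0.0236). SHMT1, the cytosolic serine hydroxymethyltransferase, had 104, 111 and 97.4 CPM in HOXB13 estradiol libraries, against 88.5, 101 and 85.4 in HOXB13 vehicle libraries, and 107, 122 and 105 CPM in control estradiol libraries, against 85.3, 105 and 82.5 in control vehicle libraries. Treatments overlapped in HOXB13 cells and not in control cells. SHMT1 had log2 fold changes of 0.19 and 0.30 without passing (adjusted p = 0.344 and 0.101, and 0.0396 and 0.00119 with the replicate block).

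FPGS, which adds the glutamate tail that keeps folate in the cell, was at 41.4 to 60.3 CPM in all libraries, with log2 fold changes of 0.15 and 0.19 (adjusted p = 0.526 and 0.373). GGH, the hydrolase that removes the tail, was at 35.6 to 58.2 CPM, with 0.20 and 0.15 (0.379 and 0.504). MTHFD2L, a mitochondrial dehydrogenase, had 2.92, 4.06 and 3.90 CPM in HOXB13 estradiol libraries, against 3.82, 3.17 and 3.09 in HOXB13 vehicle libraries, and 2.93, 3.77 and 3.10 CPM in control estradiol libraries, against 2.86, 2.44 and 2.92 in control vehicle libraries. Its log2 fold changes were 0.11 and 0.25 (0.804 and 0.495). Over all 12 libraries the treatments overlapped in each of these 3 genes. Within one genotype they did not for GGH in HOXB13 cells and MTHFD2L in control cells.

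A second list of 41 genes held other enzymes and carriers of the same pathways. Of its 37 tested members, 12 rose and 0 fell with estradiol in HOXB13 cells, with a median log2 fold change of 0.19, and 14 rose and 0 fell in control cells, with a median of 0.26. Among all tested genes, 7.22% rose and 6.38% fell in HOXB13 cells, and 8.65% rose and 6.72% fell in control cells. Their median was −0.01 in both. This list, too, was chosen with earlier results of these data known. The 4 largest increases past the threshold in control cells were in RRM2, the ribonucleotide reductase subunit that is made in S phase (1.38 in HOXB13 cells and 1.54 in control cells), TYMS, the thymidylate synthase (1.13 and 1.30), DUT, which supplies dUMP to that enzyme (0.82 and 0.85), and TK1, the cytosolic thymidine kinase (0.59 and 0.83). Of the mitochondrial folate enzymes, SHMT2 rose by 0.52 and 0.57, and MTHFD2 by 0.66 and 0.73, on the log2 scale. In HOXB13 cells the call for SHMT2 ended without estradiol library 2, vehicle library 1 or vehicle library 3 (adjusted p = 0.0567, 0.0799 and 0.0554). Without the 4 libraries numbered 1, the edgeR calls for TK1, DUT and SHMT2 ended in HOXB13 cells (0.104, 0.0783 and 0.128), and that for SHMT2 in control cells (0.0871). Without the 4 numbered 3, the calls ended for TK1 in HOXB13 cells (0.113) and for SHMT2 in HOXB13 and control cells (0.248 and 0.174). The breakdown and recycling enzymes NT5E, CDA and XDH, and the folate enzyme ALDH1L1, were the 4 listed genes below the filter on low counts.

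**Figure D3:**
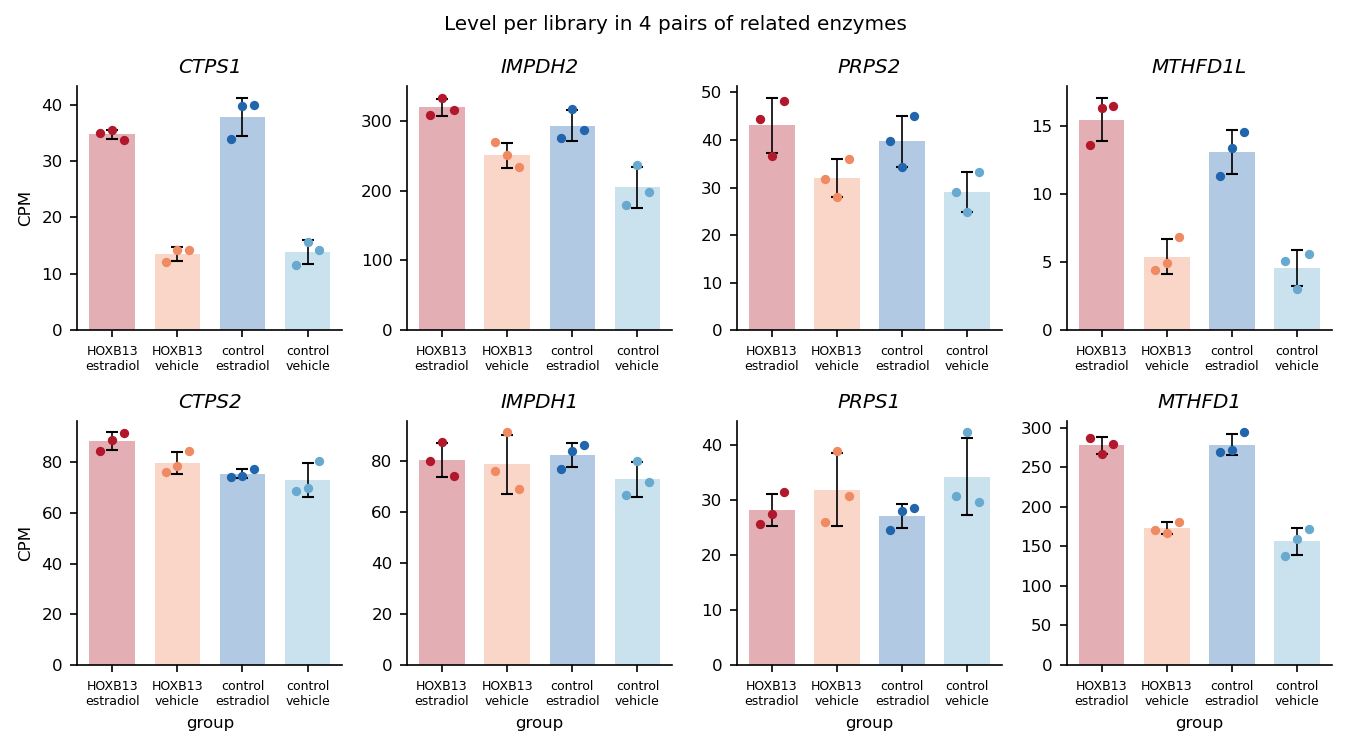
Level in CPM of 4 pairs of related enzymes, one pair per column, in each group (bars for the mean, error bars for the SD, n = 3, points for libraries). Within each genotype, every estradiol library is above every vehicle library for the gene in the upper row, and in the lower row MTHFD1 alone shows a gap of that kind.

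The uneven response of related enzymes was tested within libraries, where depth and scaling cancel out. For each pair, the log2 ratio of the CPM values was compared between estradiol and vehicle by an exact two-sided permutation test over the 12 libraries, with labels permuted within genotype, and p-values were adjusted over the 8 pairs tested. With 400 permutations the smallest possible p is 0.005, and 6 pairs reached it (adjusted p = 0.00667). That test leaves the replicate number out. When labels were permuted within replicate number as well, the same 6 pairs had an adjusted p of 0.0417. Pairs were chosen with earlier results of these data known.

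CTPS1 relative to CTPS2 had the widest shift: the log2 ratio was −1.34 ± 0.0813 in HOXB13 estradiol libraries, against −2.55 ± 0.0944 in HOXB13 vehicle libraries, and −0.998 ± 0.118 in control estradiol libraries, against −2.39 ± 0.215 in control vehicle libraries (SD, n = 3). The difference was 1.30, higher with estradiol, or a 2.47-fold shift in the ratio. MTHFD1L relative to MTHFD1 was −4.16 ± 0.197 in HOXB13 estradiol libraries, against −5.00 ± 0.275 in HOXB13 vehicle libraries, and −4.40 ± 0.129 in control estradiol libraries, against −5.11 ± 0.486 in control vehicle libraries, a difference of 0.77. The change of the mitochondrial enzyme was the larger of the 2, and without the 4 libraries numbered 2 the difference was 0.57.

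PRPS1 relative to PRPS2 was −0.61 ± 0.189 in HOXB13 estradiol libraries, against −0.01 ± 0.423 in HOXB13 vehicle libraries, and −0.55 ± 0.224 in control estradiol libraries, against 0.23 ± 0.478 in control vehicle libraries, a difference of −0.68. The vehicle libraries numbered 2 had the highest ratios, 0.47 and 0.76, and without the 4 libraries of that number the difference was −0.54. IMPDH1 relative to IMPDH2 was −1.99 ± 0.0882 in HOXB13 estradiol libraries, against −1.68 ± 0.196 in HOXB13 vehicle libraries, and −1.83 ± 0.0929 in control estradiol libraries, against −1.48 ± 0.0677 in control vehicle libraries, a difference of −0.33. SHMT1, the cytosolic form, moved against the mitochondrial SHMT2 by −0.30, and MTHFD2L against MTHFD2 by −0.53.

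The ratio of PPAT to PAICS, the pair with overlapping promoter windows, was −2.43 ± 0.159 in HOXB13 estradiol libraries, against −2.41 ± 0.176 in HOXB13 vehicle libraries, and −2.38 ± 0.0466 in control estradiol libraries, against −2.41 ± 0.0377 in control vehicle libraries. The difference of 0.0019 was within the spread between replicates (exact p = 0.965, adjusted p = 0.965). The ratio of ADSSL1 to ADSS had a difference of 0.26 that did not pass (exact p = 0.125, adjusted p = 0.143).

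**Figure D4:**
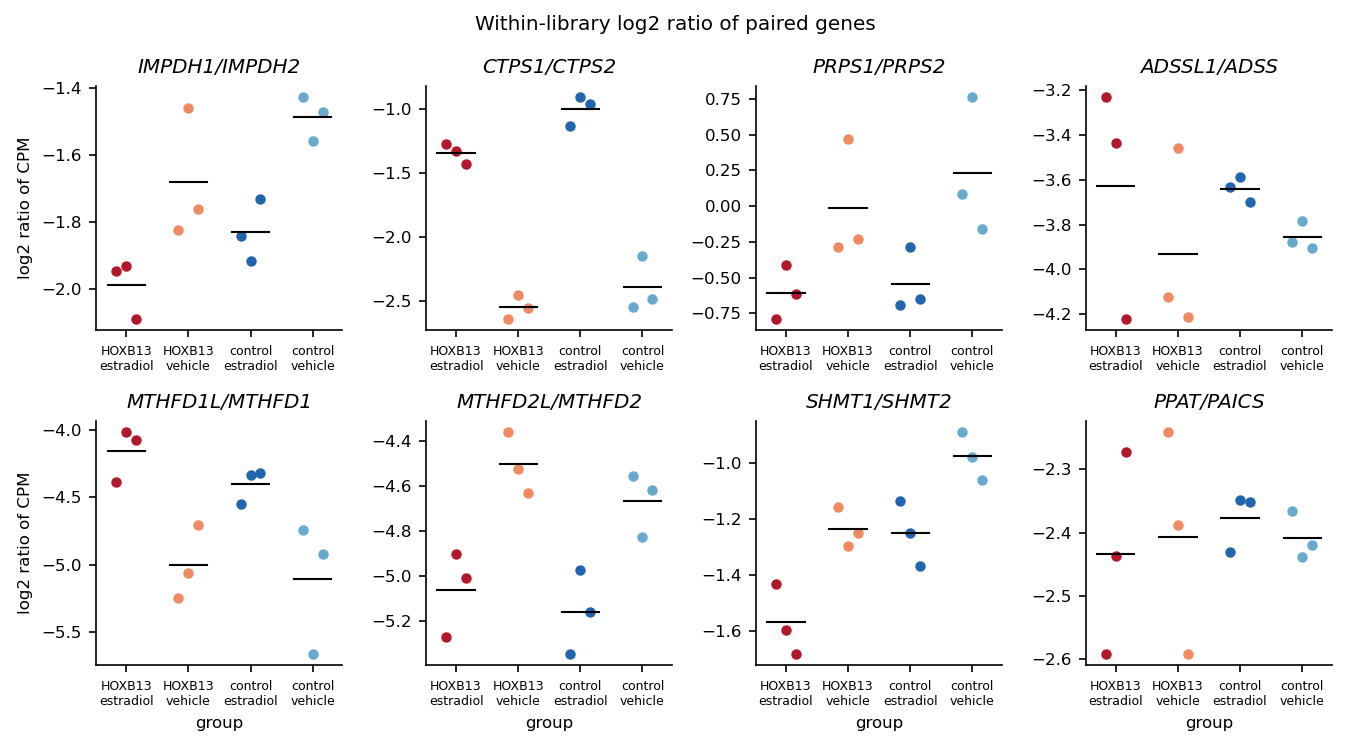
Log2 ratio of CPM between paired genes in each library (points) with the mean of each group (line), in the 4 groups; the y axes do not start at 0 and differ between panels. Estradiol and vehicle points do not overlap within either genotype for any pair except PPAT/PAICS and ADSSL1/ADSS. Those of PPAT/PAICS overlap in both genotypes, and those of ADSSL1/ADSS in HOXB13 cells only.

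No member passed the test between HOXB13 and control cells. In estradiol, 0 of 34 members rose or fell between HOXB13 and control cells by edgeR's quasi-likelihood test, where 0.0135% of all tested genes were called. There, 1 member had an unadjusted p under 0.05, as had 489 of all 14799 tested genes. In vehicle, 0 of 34 did by the same edgeR test, where 0.0203% of all tested genes were called, and 1 member had an unadjusted p under 0.05, as had 559 of all 14799 tested genes. DESeq2 and limma-voom also called 0 members in both. With the replicate block the count was 0 in both, where 0.392% of all genes passed in estradiol and 0.405% in vehicle.

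The smallest p in estradiol was that of CTPS2, at 84.3, 88.9 and 91.3 CPM in HOXB13 libraries, against 74.2, 74.5 and 77.4 in control libraries. Its log2 fold change was 0.23 ± 0.0952 (SE; adjusted p = 0.999 by edgeR, 0.193 with the replicate block), and the groups did not overlap. In vehicle it was that of IMPDH2, at 269, 251 and 233 CPM in HOXB13 libraries, against 179, 236 and 199 in control libraries. Here the groups overlapped, and the log2 fold change was 0.29 ± 0.110 (SE; adjusted p = 0.9999 by edgeR, 0.0905 with the replicate block). Over the 34 members the log2 fold changes ran from −0.12 to 0.29 in estradiol and from −0.28 to 0.29 in vehicle. Their 95% intervals reached 0.27 (in estradiol) and 0.28 (in vehicle) to either side in the median gene.

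**Figure D5:**
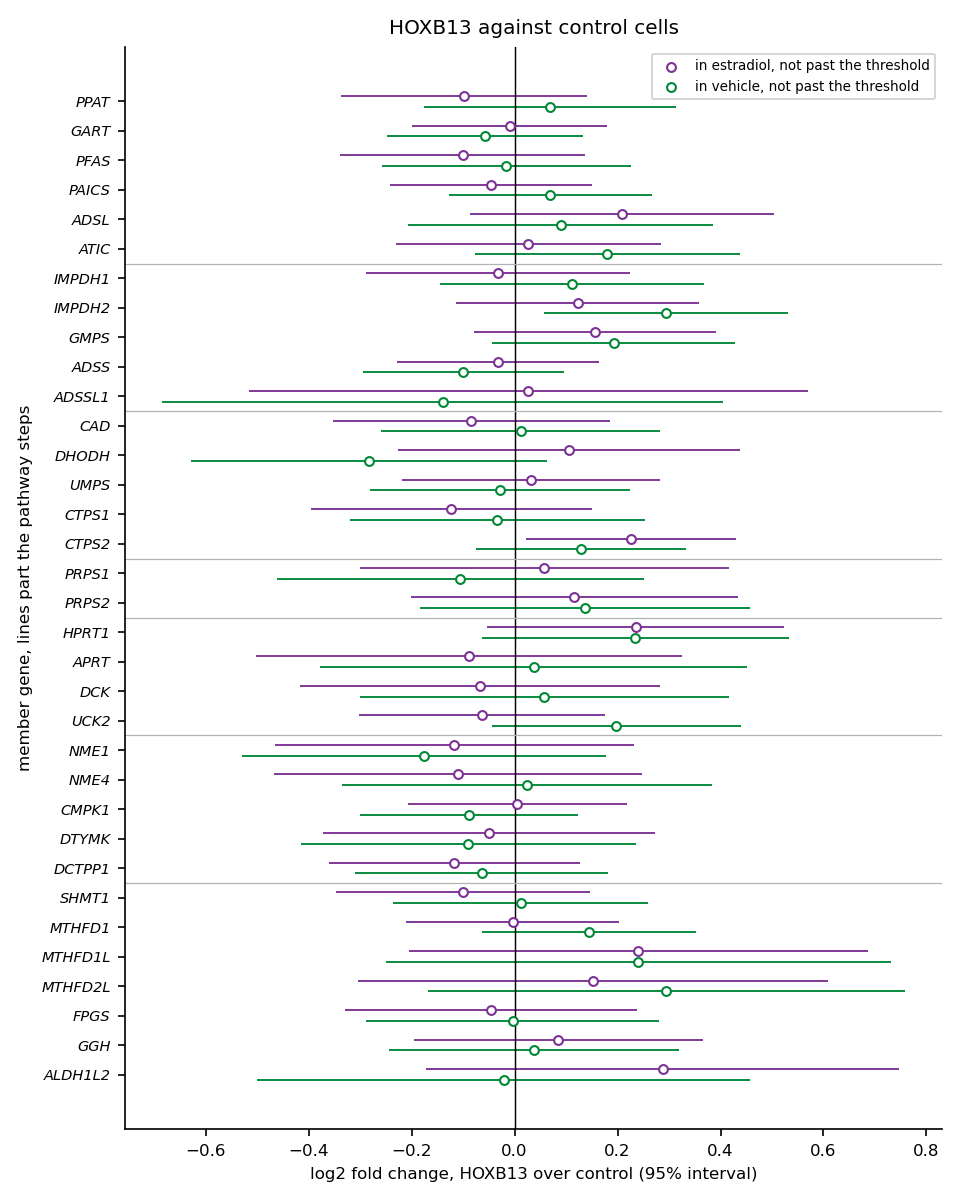
Log2 fold change of each tested member, HOXB13 over control cells (x axis, points with 95% intervals), in estradiol (purple, upper point) and in vehicle (green, lower point), with open points for members not past the threshold. All points are open and lie between −0.28 and 0.29.

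The estradiol responses of HOXB13 and control cells were compared gene by gene as a difference of log2 fold changes. By edgeR 0 of 34 members passed, where 0% of all tested genes were called. An unadjusted p under 0.05 was found in 0 members and in 219 of all 14799 tested genes. DESeq2 and limma-voom called 0 members. The widest difference among members was that of DHODH, 0.39 (95% interval −0.09 to 0.87), where the response was larger in HOXB13 cells. UCK2 had −0.26 (95% interval −0.60 to 0.08), with the smaller response in HOXB13 cells. CTPS1 and MTHFD1L, with the largest responses, had differences of −0.09 (95% interval −0.48 to 0.31) and −0.00 (−0.66 to 0.66). All 4 intervals span 0, and their width does not show that the responses were equal.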

How the data were processed

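The authors deposited whole-number read counts per gene symbol for 12 RNA-seq libraries, with no normalization. HTSeq, STAR, FastQC and Picard, and the builds hg19 and GRCh37, are listed in the submitters' processing notes. Their versions, the annotation and whether strand was used were not given in the sources used here. Total counts were 17679824 to 21385996 per library, and the tested genes held 99.9% of them.

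Genes were filtered with filterByExpr (minimum count 10, minimum total 15), scaled by TMM and tested with edgeR 4.0.16 (quasi-likelihood, robust) in R 4.3.3 in 1 model of the 4 groups of 3. P-values were adjusted by Benjamini-Hochberg over all 14799 tested genes, with a threshold of 0.05. Log2 fold changes use a prior count; standard errors come from the fit's information matrix and quasi-dispersion, and intervals are 95%. CPM use TMM-scaled library sizes. limma 3.58.1 (voom), DESeq2 1.42.0 with its own size factors, RLE scaling, no filter on low counts, no robust option, only the 2 groups compared, and libraries left out were alternatives. The edgeR procedure was also run on simulated counts, with independent libraries and changes placed in control estradiol libraries alone. That simulation held no structure by replicate number, and no result here rests on it. Pairs of libraries of 1 group differed by more than sampling noise (6.82 to 44.4 for the chi-square divided by its degrees of freedom), so no pair was treated as 1 library deposited again. That does not show that they came from separate cultures.

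Whether equal replicate numbers pair libraries was checked by correlating deviations from the group means. Same-numbered libraries correlated by 0.123 to 0.457 in the 4 comparisons of 2 groups, each above the limit of 0.1 set for pairing. Differently numbered libraries correlated by −0.354 to 0.169, and 3 of these 24 values were also above 0.1, so the pairing rests on these correlations and not on the labels. Over all pairs of groups the lowest same-number value was 0.0926, and the difference of responses was treated as unpaired. The main fit and the main test of gene pairs used no block, so their p-values leave this pairing out. Results with the replicate block are given as an alternative.

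Named genes are all 35 members, HOXB13, up to 4 genes per direction of the companion list with the largest change past the threshold for estradiol in control cells, and SHMT2 and MTHFD2. The members, lists and gene pairs were chosen with earlier results of these data known. Promoter sequences are RefSeq windows on GRCh38.p14, 31 of 35 members matched, and exon overlaps are from GENCODE 29; neither is the build of the counts, and no coordinate was converted.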

Additional observations from a re-analysis of the deposited data

How the results depend on the processing

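No fold change past the threshold changed sign under any alternative, and values that did not pass changed sign in 9 of 1088 estradiol values and 166 of 1802 values of the other comparisons. With the replicate block, 26 members passed for estradiol in control cells (24 higher, 2 lower), against 17 without it, and 23 against 17 in HOXB13 cells. The block ended no call of a member, and over all genes the calls came to 2297 higher and 2222 lower in HOXB13 cells (1068 and 944 without it) and 2594 and 2438 in control cells (1280 and 995 without it). In HOXB13 and control cells, DESeq2 called 21 (21 higher) and 21 (20 higher, and ADSS lower) members, limma-voom 18 and 17, no filter on low counts 19 and 18, only the 2 groups compared 18 and 16, RLE scaling 17 and 17, and no robust option 18 and 17. The share of all tested genes called was not counted for these fits in any comparison, or with single libraries left out. Member counts under those settings therefore cannot be set against it. Without the filter, and with only the 2 groups in the fit, UMPS in HOXB13 cells (adjusted p = 0.0691 and 0.0654) and DHODH in control cells (0.0989 and 0.1002) no longer passed. Leaving out libraries gave 3 to 23 members in HOXB13 cells and 7 to 20 in control cells; for single libraries the counts were 14 to 18 and 14 to 19. The low ends, 3 and 7, come from leaving out all 4 libraries numbered 1, which leaves 2 per group. Of the 17 calls in HOXB13 cells, 3 held under all 16 alternatives: CTPS1, MTHFD1 and MTHFD1L. Of the 17 calls in control cells, 6 did: PPAT, PAICS, CTPS1, UCK2, MTHFD1 and MTHFD1L. Every other call ended under at least 1 alternative. The counts for HOXB13 against control cells and for the difference of responses were 0 under every alternative run, the block included. With the block, UCK2 was the 1 member with an unadjusted edgeR p under 0.05 for that difference, as were 585 of all 14799 tested genes. For the gene pairs, 6 of 8 passed under every setting run, with an adjusted p of 0.0417 when labels were permuted within replicate number as a paired test, where 64 permutations allow no p below 0.03125. Values without the libraries numbered 2 were chosen for the pairs after seeing the data. Of the tested members, ADSSL1, ALDH1L2, DCK, DHODH, MTHFD1L and MTHFD2L were under 20 CPM in every library, and the part of depth in calls gained or lost was not tested.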
